A study of Arabidopsis thaliana with 7 samples.

Results

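Summits of E2FA, E2FB and RBR peaks that lay inside introns of protein-coding genes, away from any start of transcription, were analysed across 3 deposited ChIP-seq lists of Arabidopsis thaliana. A summit is the base of highest signal in a peak, and members were chosen by this measured position. A summit was kept when it lay inside a protein-coding gene, in no annotated exon and more than 300 bp from any annotated transcription start site (TSS) on the 5 nuclear chromosomes. In replicate 2 this gave 945 of 25897 summits for E2FA (3.65%, 95% interval 3.42 to 3.88%), 1038 of 27033 for E2FB (3.84%, 3.61 to 4.08%) and 1180 of 28742 for RBR (4.11%, 3.88 to 4.34%), or 3163 of 81672 in all. Intervals are exact Clopper-Pearson intervals and cover counting error only.

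Whole untreated Col0 seedlings, 12 days old by the sample labels, carried E2FA, E2FB, E2FC or RBR joined to green fluorescent protein under the gene's own promoter (pE2FA-E2FA-GFP, pE2FB-E2FB-GFP, pE2FC-E2FC-GFP and pRBR-RBR-GFP). Chromatin was precipitated with an antibody against GFP (ab290), and the authors called peaks in each library on its own, against the local background of the same library. E2FA, E2FB and RBR had a replicate 1 and a replicate 2 list, and E2FC had a replicate 1 list only. Libraries of input DNA, or of plants that carry no GFP, were not analysed here, so background specific to introns could not be subtracted. Peaks came from all cell types of the seedling together, and a site used in few cells cannot be told apart from weak binding in many. The 7 lists held between 24979 and 28839 peaks. Replicate 2 lists were narrow peaks with summits and replicate 1 lists were broad peaks without them, so replicate and peak format cannot be told apart.

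E2F transcription factors bind DNA next to a dimerization partner and set the level of genes for DNA replication and division. RBR, the plant retinoblastoma protein, joins E2Fs on DNA and represses their targets. Such proteins are best known at promoters, whereas introns of plants, mainly those near the start of a gene, can also hold elements that raise or silence transcription, as in the flowering repressor FLC.

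The E2F consensus is the sequence TT, then 2 bases that are C or G, then CG, then 2 bases that are C or G. Of 15 intron sites picked by fold enrichment, as described further on, 6 held this consensus within 100 bp of a summit. They are printed to show how the match lies in the intron around the middle summit of the site, on the plus strand of TAIR10, with the match in capitals. The EDS16 stretch is chr1:28071458-28071538, the EXPA6 stretch chr2:12432345-12432425, the AT3G11860 stretch chr3:3745585-3745711, the UGT85A1 stretch chr1:7905036-7905117, the SKOR stretch chr3:622851-622931 and the BGAL16 stretch chr1:29092563-29092643.
EDS16: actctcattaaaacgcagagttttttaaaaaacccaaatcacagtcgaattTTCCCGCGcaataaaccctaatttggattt
EXPA6: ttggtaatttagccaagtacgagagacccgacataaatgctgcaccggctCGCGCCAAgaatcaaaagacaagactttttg
AT3G11860: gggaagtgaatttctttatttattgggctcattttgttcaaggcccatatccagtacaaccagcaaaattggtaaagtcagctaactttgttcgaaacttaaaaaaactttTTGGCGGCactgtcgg
UGT85A1: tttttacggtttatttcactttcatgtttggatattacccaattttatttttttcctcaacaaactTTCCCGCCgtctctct
SKOR: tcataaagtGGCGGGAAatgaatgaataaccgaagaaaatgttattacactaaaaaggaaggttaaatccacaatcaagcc
BGAL16: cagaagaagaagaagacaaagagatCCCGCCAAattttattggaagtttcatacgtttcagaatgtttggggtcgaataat

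Another 2 of the 15 sites held a G-box, the sequence CACGTG bound by bHLH and bZIP factors, within 100 bp of a summit. This pair was added after the values were seen, as a contrast to the E2F matches. The OPT4 stretch is chr5:25753118-25753198 and the AT2G44430 stretch is chr2:18335060-18335140, both on the plus strand of TAIR10 with the G-box in capitals.
OPT4: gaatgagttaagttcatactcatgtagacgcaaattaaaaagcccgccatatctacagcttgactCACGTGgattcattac
AT2G44430: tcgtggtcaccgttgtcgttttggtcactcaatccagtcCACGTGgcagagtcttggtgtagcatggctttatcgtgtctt

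The intron with the highest E2FA and E2FB summits was intron 2 of 11 of EDS16 (AT1G74710), which encodes isochorismate synthase of the salicylic acid pathway. In the 755 bp intron (chr1:28070791-28071545, TAIR10), replicate 2 fold enrichment was 13.7 in the E2FA list, 14.2 in the E2FB list and 6.56 in the RBR list. The 3 summits lay within 21 bp of each other, and the E2F match was centred 15 bp from the middle summit. In replicate 1 the broad peaks over it had mean fold enrichments of 3.24 (E2FA), 2.73 (E2FB), 2.78 (E2FC) and 2.24 (RBR). The values of replicate 1 are means over a whole broad peak and are not on the scale of the summit values.

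EXPA6 (AT2G28950), an expansin that loosens cell walls, came next for E2FA with 12.4 in intron 2 of 2, against 10.5 for E2FB and 6.67 for RBR. OPT4 (AT5G64410), an oligopeptide transporter, reached 11.6 (E2FA), 9.64 (E2FB) and 7.25 (RBR) in intron 2 of 4. At both genes all 3 proteins had a summit, and EXPA6 had an E2F match whereas OPT4 had a G-box. In AT3G11860, annotated as a sterile alpha motif domain protein, the first intron of 1225 bp gave 10.9 for E2FA, 11.5 for E2FB and 5.61 for RBR. The only intron of UGT85A1 (AT1G22400), a UDP-glycosyltransferase gene, gave 10.8 (E2FA), 8.32 (E2FB) and 5.43 (RBR). In SKOR (AT3G02850), a potassium channel that releases the ion into the xylem, the first intron gave 9.80 (E2FA), 10.7 (E2FB) and 4.41 (RBR), with summits within 4 bp of each other. BGAL16 (AT1G77410), a beta-galactosidase gene, had 9.95 (E2FA), 10.4 (E2FB) and 6.16 (RBR) in the first of its 18 introns. The 6 sites with an E2F match were among the highest of the E2FA and E2FB lists, which is how they came to be named. By rank, between 98.7% and 99.5% of the E2FA list and between 97.9% and 99.6% of the E2FB list lay below them, and between 79.8% and 97.9% of the RBR list. At each of the 6, RBR ranked below both E2Fs, an order that choosing sites by high E2FA or E2FB values favours. AT2G44430, with a G-box and no E2F match, had the same order. There 98.5% of the E2FA list, 98.9% of the E2FB list and 94.9% of the RBR list lay below.

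Of the 5 sites highest for RBR, OPT4 was also among the highest for E2FA, and none of the 5 held an E2F match. AT1G18210, a calcium-binding EF-hand protein gene with 1 intron, which lies behind its coding sequence, gave 8.89 for RBR and 6.17 for E2FB, and E2FA had no intron summit there. AT1G80610, annotated as an uncharacterized protein, had an RBR summit of 7.44 alone in its first intron. OPT4 followed, and then HDG1 (AT3G61150), a homeodomain factor of the epidermis, with 7.22 for RBR, 4.25 for E2FA and 4.94 for E2FB in its last intron, number 8. An equal RBR value of 7.22 was found in intron 2 of sks5 (AT1G76160), a gene of the SKU5 multicopper oxidase-like family, where E2FA had 4.65 and E2FB 6.02. AT1G18210 and AT1G80610 lay inside replicate 1 peaks of all 4 proteins, although a replicate 2 summit was missing for 1 or more proteins there.

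The remaining 4 of the 15 sites came from ranking sites with summits of all 3 proteins that also lay in a replicate 1 peak of each of them. AT4G36010, a thaumatin family gene, had 5.65 (E2FA), 6.61 (E2FB) and 7.07 (RBR) in its only intron. GA2OX6 (AT1G02400), an enzyme that inactivates gibberellins, had 4.90 (E2FA), 6.51 (E2FB) and 7.03 (RBR) in its first intron of 1355 bp. TBL37 (AT2G34070), a gene of the trichome birefringence-like family, had 8.40 (E2FA), 7.73 (E2FB) and 6.67 (RBR) in intron 2 of 4. The bromodomain gene AT2G44430 had 9.10 (E2FA), 10.3 (E2FB) and 5.87 (RBR) in its last intron, with the G-box 3 bp from the middle summit. All 15 sites lay in peaks of all 4 replicate 1 lists, and 8 of them were in first introns. Recurrence in replicate 1 was part of the choice for some of the sites, and the others are the highest of their lists, so this count says nothing of introns in general.

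**Figure D1:**
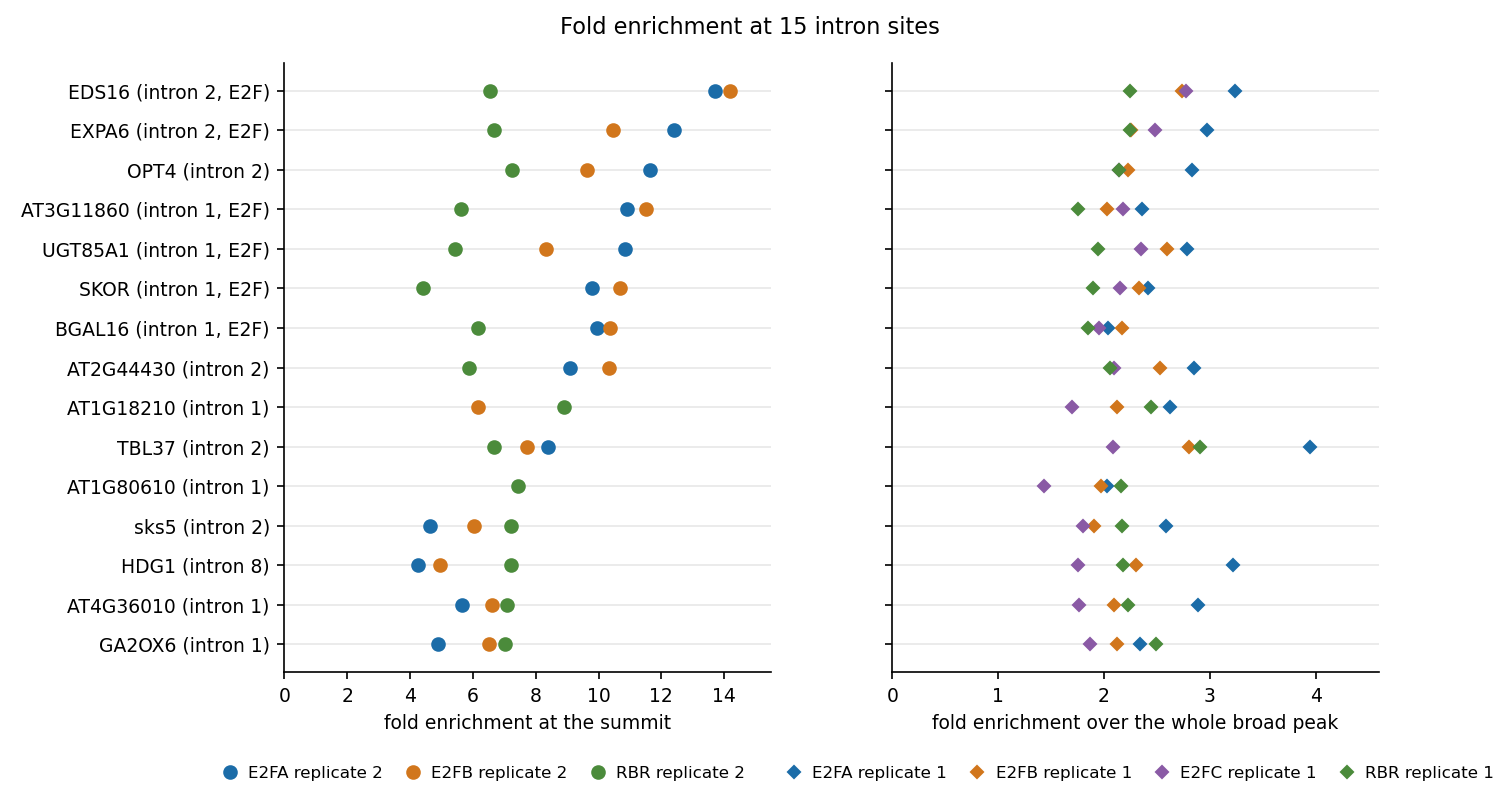
Fold enrichment (x axes) at the 15 named intron sites (y axis, gene and intron number, E2F where the consensus lies within 100 bp of a summit), at the summit in the 3 replicate 2 lists on the left and as the mean over the broad peak in the 4 replicate 1 lists on the right. At the 6 sites with an E2F match, the RBR point in the left panel lies below both E2F points, with EDS16 at 13.7 for E2FA, 14.2 for E2FB and 6.56 for RBR. These 6 sites were picked for high E2FA or E2FB values, and values were not rescaled between libraries.

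Measured over all members, summits in introns were weaker than the other summits of their lists. Median fold enrichment was 2.35 for E2FA, against 2.65 for summits not in introns. It was 2.55 against 3.03 for E2FB, and 2.44 against 3.06 for RBR. The highest intron values, 13.7, 14.2 and 8.89, compare with 69.4 for E2FA, 82.0 for E2FB and 119 for RBR over the whole lists. A fold enrichment over 3 with a q-value under 0.01 was met by 226 E2FA members (23.9%), beside 35.6% of all E2FA summits. The same was met by 334 E2FB members (32.2%), beside 50.5% of all, and by 394 RBR members (33.4%), beside 51.0% of all. In each list the intron share was below that of the whole list. Summits in exons of protein-coding genes beyond the same 300 bp were about as weak, so this was not particular to introns. Their median fold enrichment was 2.40 (E2FA), 2.55 (E2FB) and 2.41 (RBR), and 27.7%, 34.4% and 33.9% of them met both limits. No test was run on these values because the rule used the same lists.

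The rule keeps summits away from start sites, which limits how many of their peaks can reach one. A TSS was covered by 47 members of E2FA (4.97%), 49 members of E2FB (4.72%) and 118 members of RBR (10%), beside 9.58%, 9.54% and 13.6% of the peaks whose summit lay in an exon beyond the same 300 bp. Most members touched an exon, and 326 E2FA peaks (34.5%), 323 E2FB peaks (31.1%) and 289 RBR peaks (24.5%) lay wholly inside an intron. Summits within 75 bp of an end of the intron made up 35.4% of members for E2FA, 36.3% for E2FB and 33.4% for RBR. Median GC content of the 200 bp around intron summits was 33.0% (E2FA), 33.5% (E2FB) and 33.0% (RBR), and that of all eligible intron windows was 36.0%. Eligible sequence here is all sequence that the rule would accept, 16.3 Mb in all.

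Just inside the limit of 300 bp lay AT2G18670, a RING/U-box gene, with an E2FA summit at 307 bp and a fold enrichment of 2.85. Just outside it lay AT4G20830, a berberine bridge enzyme-like gene, at 298 bp and 3.40. For E2FB the nearest inside was AT1G20290 at 301 bp and 2.35, and the nearest outside the peptide transporter gene PTR3 at 299 bp and 4.21. For RBR they were LecRK-I.9, a lectin receptor kinase gene, at 301 bp and 2.37, and the receptor kinase gene AT1G56130 at 300 bp and 2.37. The summits nearest to the limit on either side were 1 to 9 bp apart in this distance.

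First introns held 385 of 945 E2FA members (40.7%, 37.6 to 44.0%), 437 of 1038 E2FB members (42.1%, 39.1 to 45.2%) and 457 of 1180 RBR members (38.7%, 35.9 to 41.6%), while they made up 22.2% of eligible sequence. E2FA had 106 summits per Mb of first intron and 44.1 per Mb of later introns, a ratio of 2.40. The ratio was 2.54 for E2FB (120 per Mb in first and 47.3 per Mb in later introns) and 2.21 for RBR (126 and 56.9 per Mb). The mean log2 ratio over the 3 libraries was 1.25 ± 0.10 (SD, n = 3), higher in first introns in 3 of 3 lists (exact two-sided sign-flip permutation test, p = 0.25, adjusted p = 0.33 over 8 comparisons). With 3 libraries, 0.25 is the smallest p this test can give, and the 3 libraries are of different proteins, not replicates of a condition. The lists also share sites, so 3 of 3 lists are not separate cases.

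Intron length moved with this difference. Introns longer than 500 bp held 555 E2FA members (58.7%), 597 E2FB members (57.5%) and 683 RBR members (57.9%) in 18.0% of eligible sequence. Introns of up to 150 bp were 44.2% of eligible sequence and held 14.8%, 14.9% and 13.2% of members. In introns longer than 500 bp, E2FA had 194 summits per Mb of first intron and 184 per Mb of later introns, a ratio of 1.06. E2FB had 206 and 200 per Mb there, a ratio of 1.03, and RBR had 218 and 246 per Mb, a ratio of 0.886. The mean log2 ratio in these long introns was -0.019 (exact sign-flip permutation test, p = 1), and no excess in first introns was measured there. In shorter introns an excess remained, with ratios of 2.25 for E2FA, 2.63 for E2FB and 1.78 for RBR up to 150 bp, and of 1.44, 1.85 and 1.62 between 150 and 500 bp. Long introns as a whole held 189, 203 and 232 summits per Mb for E2FA, E2FB and RBR, beside 217, 227 and 241 per Mb over the whole nuclear genome. In introns over 1000 bp the density was 255, 252 and 313 per Mb, above the genome value in each list. In introns of up to 150 bp it was 19.4, 21.5 and 21.6 per Mb.

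**Figure D2:**
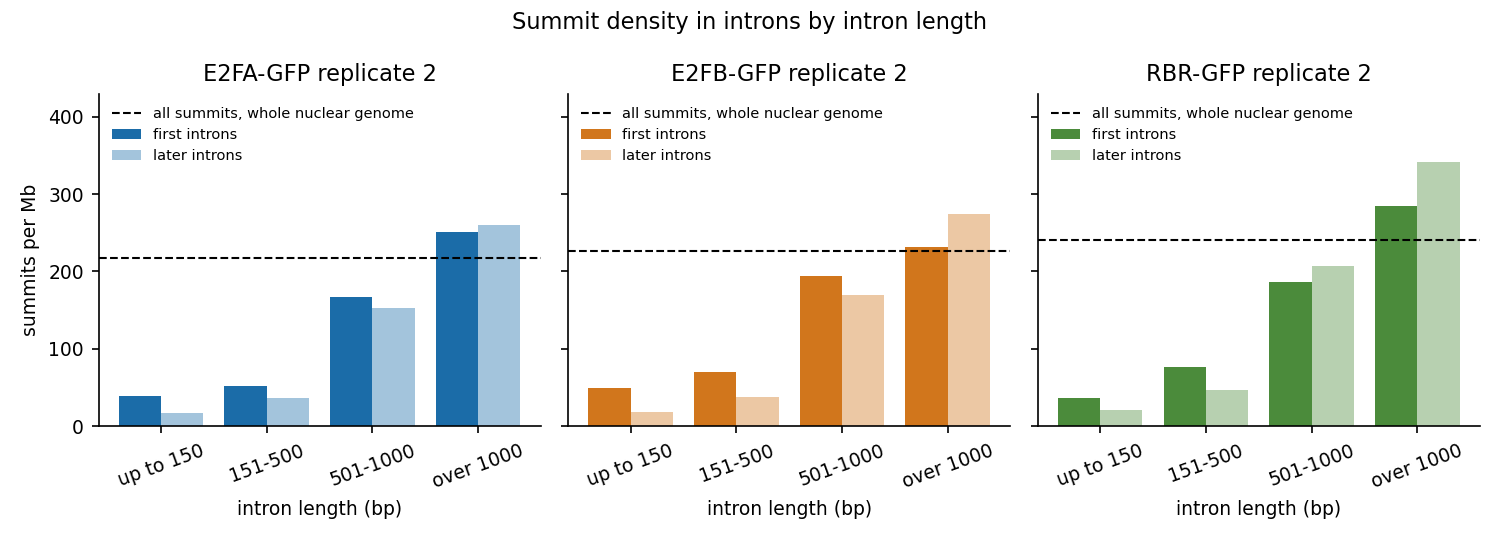
Summits per Mb of eligible intron sequence (y axis) by intron length class (x axis, bp) in the 3 replicate 2 lists, with dark bars for first introns, pale bars for later introns and a dashed line for all summits over the nuclear genome. Bars climb with intron length in every panel, and RBR has 285 per Mb in first and 342 per Mb in later introns over 1000 bp.

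The excess in first introns was wider further from the start of the gene. Between 300 and 600 bp from the gene start the ratio of first to later introns was 1.20 (E2FA), 1.90 (E2FB) and 1.17 (RBR). More than 2000 bp away it was 7.73, 6.25 and 5.86, from 33, 29 and 32 first-intron summits in 0.124 Mb of sequence. These classes of distance were not split by intron length, so distance and length cannot be told apart in them. In introns over 1000 bp, at any distance, the ratio was 0.962 (E2FA), 0.843 (E2FB) and 0.834 (RBR). Leader introns, which lie before the coding sequence, held 6.14% of E2FA members, 5.39% of E2FB members and 5.68% of RBR members in 3.46% of eligible sequence. Introns behind the coding sequence held 2.12%, 2.50% and 2.71% in 1.15% of it.

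The replicate 1 lists, which the rule did not use, gave the same order by length and included E2FC. In introns over 1000 bp, broad peaks covered 44.2% of bases (E2FA), 29.9% (E2FB), 27.9% (E2FC) and 32.5% (RBR). In introns of up to 150 bp they covered 1.08% (E2FA), 1.09% (E2FB), 0.532% (E2FC) and 2.12% (RBR). Over all lengths, first introns were covered at 13.6% and later introns at 4.85% for E2FA, and for E2FC at 7.45% and 2.79%. In introns over 1000 bp, first and later introns were covered at 44.3% and 44.0% for E2FA, 29.8% and 30.1% for E2FB, 27.8% and 27.9% for E2FC, and 31.6% and 33.3% for RBR.

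**Figure D3:**
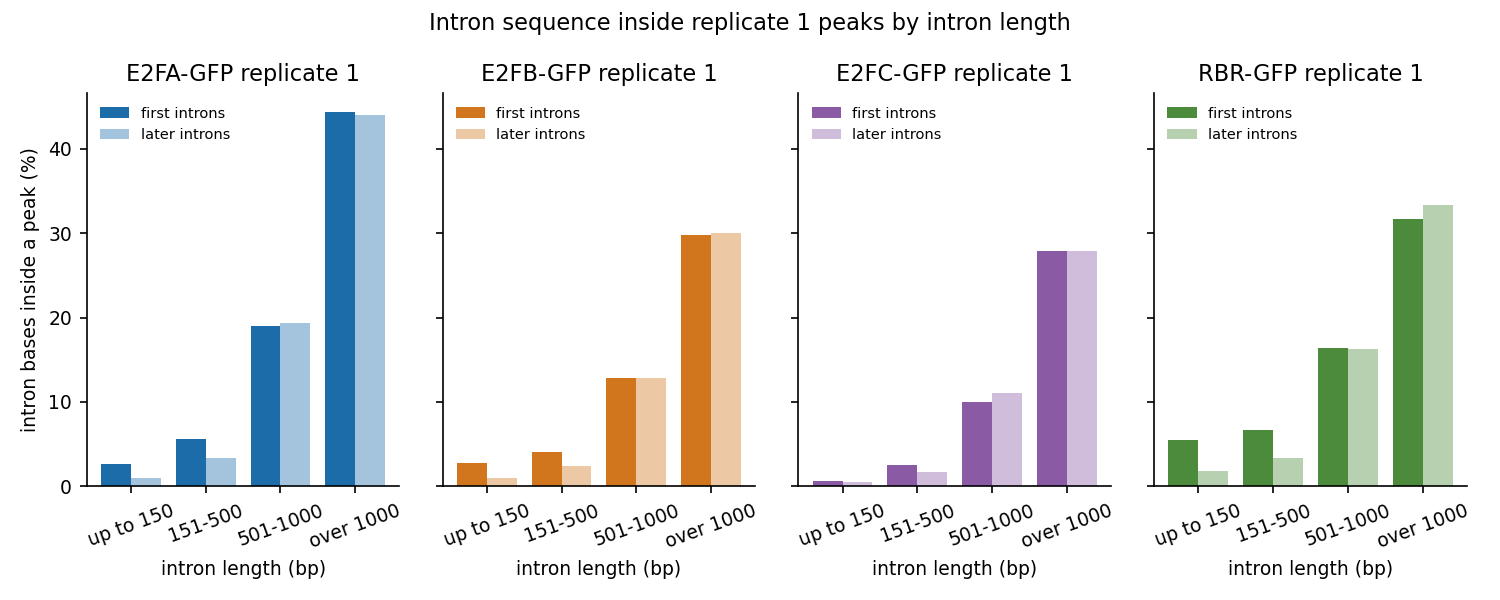
Share of eligible intron bases inside a replicate 1 peak (y axis, %) by intron length class (x axis, bp) for 4 proteins, with dark bars for first and pale bars for later introns. Coverage climbs with length in each panel, and the paired bars over 1000 bp are nearly level, as for E2FC at 27.8% in first and 27.9% in later introns.

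Recurrence was scored as a summit of replicate 2 inside a replicate 1 peak of the same protein. It held for 693 of 945 E2FA members (73.3%, 70.4 to 76.1%), beside 78.3% of all E2FA summits. It held for 687 of 1038 E2FB members (66.2%, 63.2 to 69.1%), beside 78.6% of all, and for 876 of 1180 RBR members (74.2%, 71.6 to 76.7%), beside 83.1% of all. Replicate 1 peaks of these proteins covered 6.81%, 4.81% and 6.38% of eligible intron bases. Recurrence of intron summits was lower than that of summits not in introns, which was 78.5% (E2FA), 79.1% (E2FB) and 83.5% (RBR). The difference was -5.12, -13.0 and -9.22 percentage points, with a mean of -9.10 ± 3.92 (SD, n = 3) and lower in 3 of 3 lists (exact sign-flip permutation test, p = 0.25, adjusted p = 0.33).

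Fold enrichment moved with recurrence. Each list was cut into 4 equal classes by fold enrichment. In the lowest class, 57.9% of E2FA members, 46.6% of E2FB members and 54.7% of RBR members recurred, and in the highest class 96.2%, 98.5% and 100%. Within classes the gap to summits not in introns was between -1.09 and 0.15 percentage points for E2FA, between -7.94 and -0.54 for E2FB and between -3.80 and 0.28 for RBR. Members sat in the lowest class more often than the lists as a whole, at 36.2% for E2FA, 39.7% for E2FB and 43.2% for RBR. Summits in exons of protein-coding genes beyond the same 300 bp recurred at 54.3% for E2FA, 59.6% for E2FB and 68.3% for RBR. Intron summits were above these by 19.0, 6.60 and 5.94 points, a mean of 10.5 ± 7.36 (SD, n = 3, exact sign-flip permutation test, p = 0.25). This comparison was added after the data were seen. By class, low to high, E2FA exon summits recurred at 26.4%, 48.7%, 74.2% and 92.5%, against 57.9%, 70.5%, 85.9% and 96.2% in introns. For E2FB these were 30.2%, 62.2%, 86.6% and 98.1%, against 46.6%, 64.0%, 87.9% and 98.5%. For RBR they were 41.1%, 78.6%, 94.9% and 99.6%, against 54.7%, 78.3%, 94.9% and 100%.

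**Figure D4:**
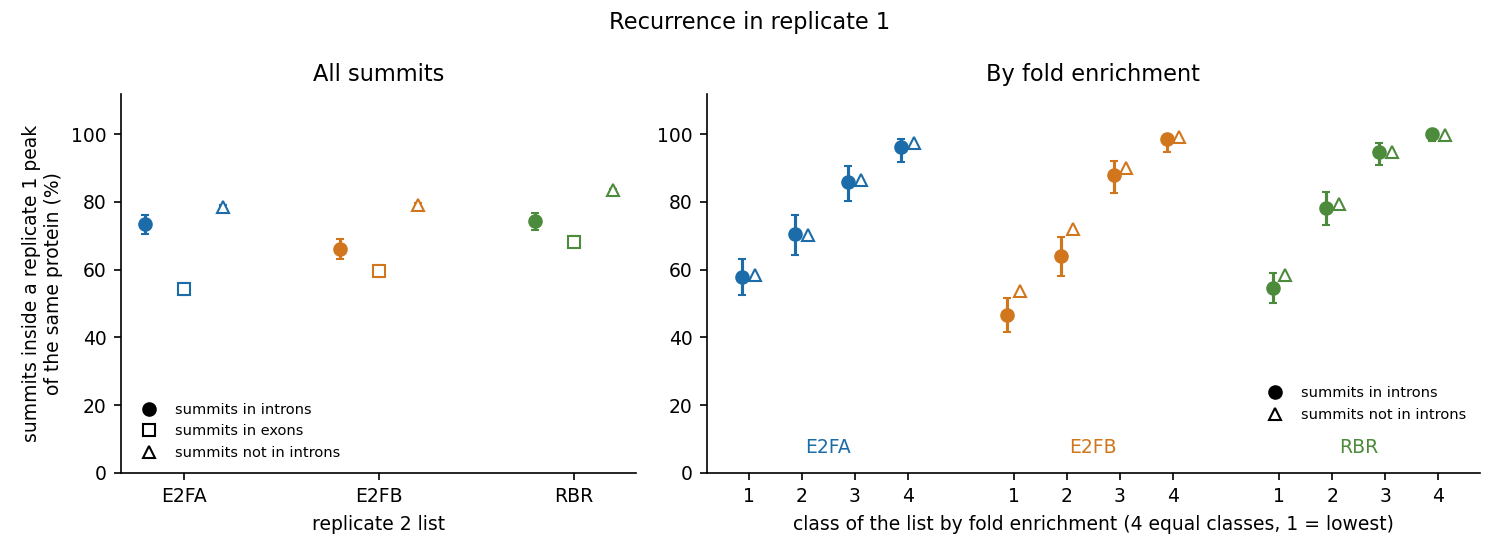
Summits of replicate 2 inside a replicate 1 peak of the same protein (y axis, %), on the left for summits in introns, in exons and not in introns, on the right by class of fold enrichment (1 to 4, low to high), with 95% exact intervals on the left and, on the right, on the intron points only. Intron summits lie between exon summits and summits not in introns on the left, and reach 96.2% to 100% in the highest class on the right.

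Over introns of all lengths, neither first nor later introns recurred more in all 3 lists. E2FA members recurred at 74.8% in first and 72.3% in later introns, E2FB members at 66.8% and 65.7%, and RBR members at 73.1% and 75.0%. The mean difference was 0.57 ± 2.23 points (SD, n = 3), higher in 2 of 3 lists (exact sign-flip permutation test, p = 0.75, adjusted p = 0.75), and the direction depended on the library. By intron length, 32.9% of E2FA members in introns of up to 150 bp recurred, 35.5% of E2FB members and 46.8% of RBR members. In introns longer than 500 bp these were 86.8%, 80.1% and 84.2%. Within these long introns recurrence was 84.1% in first and 89.6% in later introns for E2FA, 77.9% and 82.2% for E2FB, and 82.0% and 86.0% for RBR. Later introns were also higher in all 3 lists between 150 and 500 bp. First and later introns there recurred at 54.1% and 72.1% (E2FA), 43.9% and 60.5% (E2FB), and 56.8% and 72.7% (RBR). Up to 150 bp they recurred at 39.1% and 31.6% (E2FA), 44.8% and 33.3% (E2FB), and 38.1% and 48.1% (RBR). Peaks wholly inside an intron, with median intron lengths of 855 to 959 bp, recurred at 81.9% for E2FA, 69.3% for E2FB and 75.8% for RBR, against 68.8%, 64.8% and 73.7% for intron summits whose peak touched an exon.

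The 3 proteins shared much of the intron set. The RBR list had the largest share of summits outside the peaks of both other proteins, in introns and over the whole list, and its peaks covered the most sequence, 18.6% of the nuclear genome, against 12.0% for E2FA and 14.5% for E2FB. An E2FB peak contained 77.0% of E2FA members and an RBR peak 89.6%. For E2FB members, 67.9% lay in an E2FA peak and 88.6% in an RBR peak. For RBR members, 53.1% lay in an E2FA peak and 62.0% in an E2FB peak. Each of these shares was below that of all summits of the list, which was 89.4% and 94.4% for E2FA, 79.0% and 94.6% for E2FB, and 70.6% and 79.9% for RBR. Members in no peak of the other 2 proteins were 7.30% for E2FA, 8.57% for E2FB and 31.8% for RBR, beside 3.63%, 3.72% and 16.5% of all summits of the lists. These members had median fold enrichments of 1.95, 1.96 and 1.86. Of them, 30.4%, 16.9% and 53.6% recurred in replicate 1, against 82.3%, 81.7% and 91.9% of members inside peaks of both other proteins. The lists come from 1 library each, so a difference between proteins cannot be told apart from a difference between libraries.

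Chained at up to 150 bp between neighbouring summits, the members formed 1917 sites in 1516 genes, out of 20469 genes with eligible intron sequence (7.41%). All 3 proteins had a summit at 422 sites, 2 proteins at 402 and 1 protein at 1093. Only members were chained, so a site of 1 protein can lie in a peak of another protein with its summit elsewhere. E2FA alone had 294 sites, E2FB alone 318 and RBR alone 481. Members outside the peaks of both other proteins numbered 69, 89 and 375. The same count of sites was not made over all summits. Of the 422, 201 (47.6%) lay in peaks of all 4 replicate 1 lists, beside 25.6% of all sites. By summit, 36.1% of E2FA members, 30.3% of E2FB members and 27.9% of RBR members lay in peaks of all 4. Of all summits of the lists, 42.2%, 40.2% and 35.8% did. Of the 422 sites, 329 lay in the replicate 1 peak of each of E2FA, E2FB and RBR. A site in no replicate 1 list was found 434 times, of which 336 had a summit of 1 protein. Counted by summit, 12.8% of E2FA members, 18.5% of E2FB members and 21.1% of RBR members lay in no replicate 1 peak of any protein, beside 7.89%, 9.94% and 12.6% of all summits of the lists. E2FC, for which only replicate 1 was analysed, covered 38.1% of E2FA members, 33.5% of E2FB members and 31.2% of RBR members, beside 44.2%, 42.3% and 37.7% of all summits of the lists.

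The E2F consensus lay within the 200 bp around the summit for 69 E2FA members (7.30%, 5.73 to 9.15%), beside 6.92% of all E2FA summits. It did for 51 E2FB members (4.91%, 3.68 to 6.41%), beside 5.75% of all, and for 30 RBR members (2.54%, 1.72 to 3.61%), beside 3.65% of all. The same consensus was found in 1.15% of all eligible intron windows and in 2.31% of windows of that length directly upstream of the 27444 protein-coding genes, with both strands searched. Members thus carried it 6.34 times as often as intron windows for E2FA, 4.27 times for E2FB and 2.21 times for RBR. Against summits not in introns the difference was 0.392 points (E2FA), -0.872 (E2FB) and -1.15 (RBR), so no common direction was seen. Its mean was -0.54 ± 0.82 (SD, n = 3, exact sign-flip permutation test, p = 0.5, adjusted p = 0.57). Summits in exons of protein-coding genes beyond the same 300 bp carried the consensus more often, at 9.32% (E2FA), 7.05% (E2FB) and 2.89% (RBR). Intron minus exon summits gave a mean of -1.50 points, lower in 3 of 3 lists (exact sign-flip permutation test, p = 0.25, adjusted p = 0.33). This comparison with exons was added after the data were seen. First introns carried the consensus at 7.79% and later introns at 6.96% for E2FA, at 5.72% and 4.33% for E2FB, and at 3.06% and 2.21% for RBR. The mean difference was 1.02 ± 0.32 points (SD, n = 3), higher in 3 of 3 lists (exact sign-flip permutation test, p = 0.25, adjusted p = 0.33). As a base composition control, the same letters read backwards were in 1.48% of E2FA members, 2.12% of E2FB members and 1.53% of RBR members, and in 0.794% of intron windows. That was 1.87 times the intron windows for E2FA, 2.67 times for E2FB and 1.92 times for RBR. For RBR this was close to the 2.21 of the consensus. Exon summits had the reversed letters more often than members as well, at 3.85% (E2FA), 3.33% (E2FB) and 3.14% (RBR).

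The matches gathered at the summits of E2FA and E2FB. Within 50 bp of the summit, 4.66% of E2FA members and 3.47% of E2FB members had a match, and between 100 and 150 bp 1.27% and 1.06%. For RBR these shares were 1.19% and 1.19%, with no gathering. In the highest of the 4 classes of fold enrichment, 14.6% of E2FA members, 16.3% of E2FB members and 4.12% of RBR members had a match, against 3.80%, 2.43% and 2.55% in the lowest. Summits not in introns rose as well, so the rise was not particular to introns. They had a match in 17.5%, 14.3% and 6.59% of the highest class, against 2.92%, 2.51% and 1.89% of the lowest. Sites with intron summits of E2FA and E2FB but not RBR had a match in 20 of 125 cases (16.0%). An RBR peak may still cover such a site, since sites were formed from intron summits only. A match was found at 23 of 422 sites of all 3 proteins (5.45%) and 7 of 481 sites of RBR alone (1.46%). The share of members with a match was higher in introns of up to 150 bp, at 15.7% (22 of 140) for E2FA, 11.0% (17 of 155) for E2FB and 5.13% (8 of 156) for RBR, than in those over 500 bp, at 30 of 555 (5.41%), 25 of 597 (4.19%) and 15 of 683. Of intron windows of these classes, 1.43% and 1.04% held one. Windows in short introns reach into exons. Members with a match recurred at 63.8% for E2FA, 78.4% for E2FB and 73.3% for RBR, against 74.1%, 65.6% and 74.3% of members without one.

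**Figure D5:**
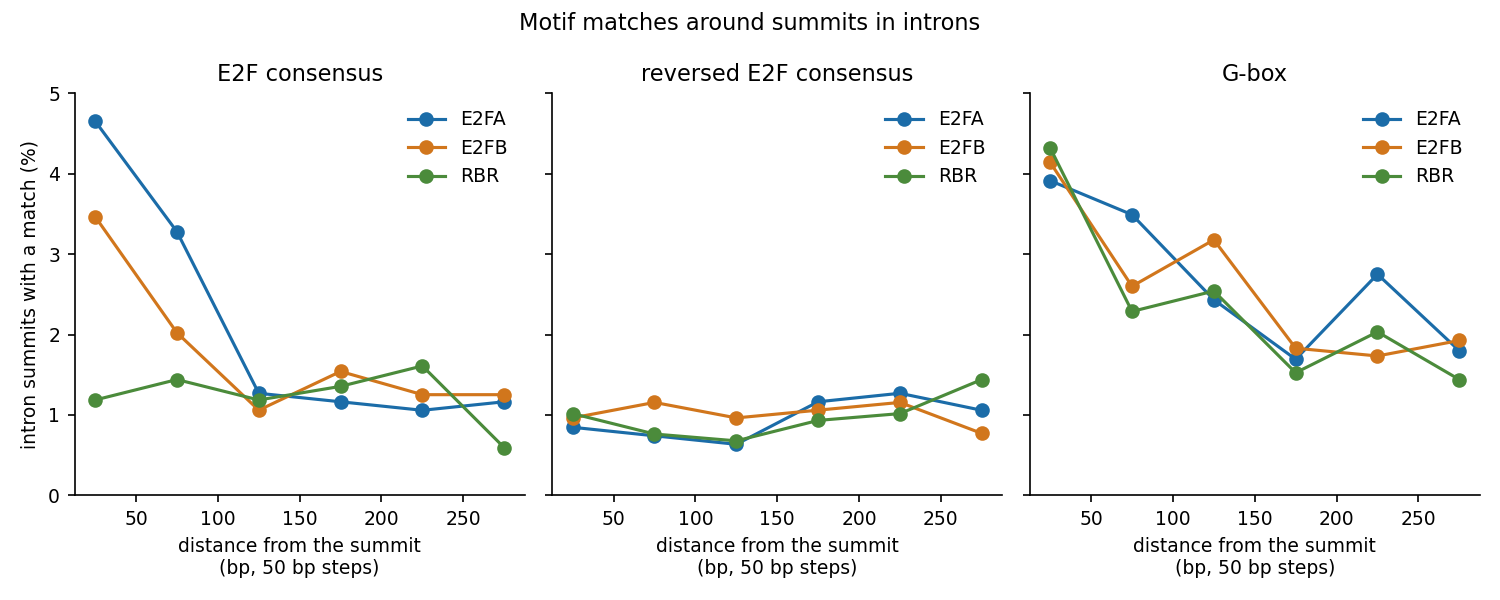
Share of intron summits with a match (y axis, %) in steps of 50 bp from the summit (x axis), for the E2F consensus, the same letters read backwards and the G-box, with a line per replicate 2 list. The E2F consensus is highest at the summit for E2FA (4.66%) and E2FB (3.47%) and not for RBR, the reversed letters stay under 1.5%, and the G-box is highest at the summit for all 3 lists.

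The G-box was in 65 E2FA members (6.88%, 5.35 to 8.68%), 64 E2FB members (6.17%, 4.78 to 7.81%) and 74 RBR members (6.27%, 4.96 to 7.81%), beside 1.17% of eligible intron windows and 5.63% of the windows upstream of genes. Unlike the E2F consensus, its share was nearly the same in the 3 lists, and within 50 bp of the summit it was 3.92% (E2FA), 4.14% (E2FB) and 4.32% (RBR). It was below that of summits not in introns, 8.84%, 8.59% and 8.44%, by a mean of 2.19 ± 0.23 points (SD, n = 3, lower in 3 of 3 lists, exact sign-flip permutation test, p = 0.25), a comparison added after the data were seen. In introns longer than 500 bp the G-box was in 9.19% of E2FA members, 7.54% of E2FB members and 8.05% of RBR members, beside 1.84% of windows. In introns of up to 150 bp it was in 0.714%, 2.58% and 1.28% of members. Members with a G-box recurred at 86.2% for E2FA, 82.8% for E2FB and 91.9% for RBR, against 72.4%, 65.1% and 73.1% of those without. Their median fold enrichments were also higher, at 2.60, 3.01 and 2.86 against 2.35, 2.50 and 2.41. Whether this gap in recurrence goes beyond intron length and fold enrichment was not tested. The telo box AAACCCTA, an element of plant ribosomal and replication gene promoters, was rarer in members than in intron windows, at 1.38%, 1.06% and 1.19% against 2.03%. The repeat GAGAGAGA was in 2.75%, 2.12% and 3.98% of members and 2.00% of windows, and AACGG, the core bound by mitotic MYB factors, in 15.0%, 17.3% and 15.8% of members and 12.0% of windows. A match is a description of the letters and not a binding site. Upstream of genes AAACCCTA was in 3.73% of windows, GAGAGAGA in 4.15% and AACGG in 17.4%.

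Genes of E2F function and genes with known regulatory introns were looked up in 4 short lists, and 5 of them held a member, with fold enrichments of 1.71 to 2.94. A member was found in 7.41% of all genes with eligible sequence, and lists this short give no firm share to set beside it. Of 4 E2F and RBR genes, 2 held a member (50%). The gene of E2FB itself (AT5G22220, symbol E2F1) had an E2FB summit of 2.94 in intron 6 of 13, with 47.2% of the E2FB list below it, inside a replicate 1 E2FB peak of 1.89. RBR1 (AT3G12280) had an E2FB summit of 1.91 in intron 3 of 17, with 5.86% of the list below it, and the replicate 1 list with a peak there was that of RBR, at 2.71. The E2FB-GFP plants carry an added tagged E2FB gene, and the RBR-GFP plants an added tagged RBR gene. Whether these hold the introns is not given in the sources used here, and their part in such peaks was not tested. Of 21 DNA replication and repair genes with eligible sequence, 2 held a member (9.52%). PRL (AT4G02060), the MCM7 subunit of the replicative helicase, had an E2FB summit of 1.81 in intron 11 of 16. CDT1A (AT2G31270), which loads that helicase, had an E2FB summit of 2.01 in intron 2 of 6, and neither lay in a replicate 1 peak. None of the 11 listed cell cycle genes held a member. Outside the lists, and named after its values were seen, the D-type cyclin gene CYCD1;1 (AT1G70210) had summits of 3.25 (E2FA), 3.52 (E2FB) and 3.50 (RBR) in intron 2 of 5, each inside a replicate 1 peak of the same protein. Of 6 genes with known regulatory introns, FLC (AT5G10140) alone held a member, an RBR summit of 1.71 in its first intron of 3493 bp, inside replicate 1 peaks of E2FA (1.56) and RBR (1.60).

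Most genes with a site had a single one, 1223 of 1516, while 219 had 2, 50 had 3 and 24 had more. AT1G58602, a disease resistance gene with leader introns of up to 7384 bp, held the most, with 7 sites. At 6 of them RBR alone had a summit, of 1.82 to 2.22, and at the last E2FA had 2.70 and E2FB 1.96. GH9B1 (AT1G70710), a cellulase of the glycosyl hydrolase family, held 5, all inside replicate 1 peaks of E2FA and RBR and with summits of 2.05 to 3.13. In replicate 1 the RBR value was 1.79 at all 5 sites, and the E2FA value was 1.75 or 2.18. Neighbouring sites can thus share a broad peak and are not separate cases of recurrence. SERK4 (AT2G13790), a co-receptor kinase, held 5 weak sites of 1.60 to 2.22, of which 2 lay in no replicate 1 peak. Another 5 genes also had 5 sites each. The 3 genes described here had no summit above 3.13.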

How the data were processed

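Peaks of 7 ChIP-seq libraries were analysed as the authors deposited them. According to the study's methods and the submitters' processing notes, reads were trimmed with Trimmomatic 0.38, mapped to TAIR10 with Bowtie2 2.3.5 and SAMtools 1.9, and peaks were called per library with MACS2 2.2.7.1. Calling settings of replicate 2 are not given separately in the sources used here, and its peak names carry the MACS3 form. The authors' fold enrichment (a ratio of signal to background nearby in that library) and q-value (as −log10) were used as deposited. Both are means over the peak in the replicate 1 lists and refer to the summit in the replicate 2 lists. They were not rescaled between libraries. The deposited lists hold no read counts, so the depth behind each value is unknown. The labels call only the second libraries a biological replicate, and the lists of 1 protein come from single libraries.

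Summits were column 2 plus column 10 of the narrow peak lists. Gene models came from RefSeq TAIR10.1, whose 5 nuclear chromosomes have the TAIR10 lengths, with 37899 genes and pseudogenes, of which 27444 were protein-coding. The start of every annotated gene and transcript counted as a TSS, exons of every gene as exons. Intron numbers are those of the transcript with the longest coding sequence. Motif letters were searched on both strands in 200 bp around the summit. Matches of different motifs may overlap and were counted separately for each motif. Shares carry exact Clopper-Pearson intervals at 95%. Differences over the 3 replicate 2 libraries were tested by an exact two-sided sign-flip permutation test with Benjamini-Hochberg adjustment over 8 comparisons, 3 of them added after the data were seen.

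Sites named singly were in each list the 5 members with the largest fold enrichment, the 5 in first and 5 in later introns of highest mean rank among sites of all 3 proteins inside the replicate 1 peaks of E2FA, E2FB and RBR, the 3 genes with most sites (ties in order of position), every gene of 4 lists of 44 genes that held a member, and the summits next to the limit of 300 bp. Members, lists and tests were chosen with earlier results of these data known. The procedure was tested on simulated summits. Alternatives varied the start sites, the limit, the exons, the peak threshold, the intron number, the chaining distance, the window, the definition of recurrence and the libraries used. Python 3.11.15, numpy 2.4.6, pandas 2.3.3, scipy 1.17.1 and matplotlib 3.10.9 were used. Peaks on organelle genomes were left out. Reads and signal tracks were not analysed here.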

Additional observations from a re-analysis of the deposited data

Results flagged for a closer look

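Over introns of all lengths, the difference in recurrence between first and later introns ran in opposite directions in the 3 lists. It was 2.48 percentage points for E2FA and 1.10 for E2FB, higher in first introns, and -1.88 for RBR, lower in first introns. In introns of 150 to 500 bp and in those longer than 500 bp, recurrence was lower in first introns in all 3 lists. Each value is from 1 library, and the difference between the proteins was not tested.

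The difference in E2F consensus between intron summits and summits not in introns also changed sign between lists. It was 0.392 points for E2FA, -0.872 for E2FB and -1.15 for RBR, and the difference between the proteins was not tested.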

How the results depend on the processing

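Of 142 values recomputed under 18 alternatives, 113 kept their direction or stayed within the interval (for counts, within 1.5 times) of the value reported. Another 23 moved beyond these limits and 6 reversed. The alternative of 1 summit per peak could change no value, and its values are counted among the 113. Restricting the lists to peaks over 3 in fold enrichment and under 0.01 in q-value left 226 E2FA, 334 E2FB and 394 RBR members and 123 sites of all 3 proteins. Under it the E2F consensus was in 15.0% of E2FA and 8.68% of E2FB members, and 93.4% of E2FA, 92.2% of E2FB and 96.9% of RBR members recurred. Recurrence was 78.4%, 71.8% and 78.6% when a summit within 200 bp of a replicate 1 peak counted, and 34.8%, 8.19% and 24.9% when only replicate 1 peaks with a mean fold enrichment of 2 or more counted. A motif window of 100 bp gave an E2F consensus in 4.34%, 3.37% and 1.19% of members. Chaining at 50 bp left 164 sites of all 3 proteins, against 422. Midpoints of replicate 1 peaks gave 1547 E2FA members in place of 945. Counting an intron that is first in any transcript as first put 44.9% of E2FA, 45.9% of E2FB and 43.3% of RBR members in first introns.

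Alternatives chosen after seeing the data turned some directions. In introns longer than 500 bp the mean log2 ratio of first to later density was -0.019, against 1.25 over all introns, and recurrence was lower in first introns by a mean of -4.59 points, against 0.57 over all introns. Averaged within 4 classes of fold enrichment, the difference in recurrence between first and later introns was -0.28 points, and the E2F consensus was 0.55 points more frequent in intron summits than in the others, against -0.54 without the classes. Set against exon summits, recurrence of intron summits was 10.5 points higher, and set against all other summits -9.10. Leaving out 1 library at a time gave between -0.39 (without E2FA) and 1.79 points for recurrence in first minus later introns. It gave between 1.20 and 1.30 for the log2 density ratio, between -11.1 and -7.17 points for recurrence of intron minus other summits, between -1.01 and -0.24 points for the E2F consensus of intron minus other summits, and between 0.84 and 1.12 points for first minus later introns. The causes were not tested. Each list held 1 summit per peak, so that alternative left all values as they were. No paired analysis was possible because summits exist in replicate 2 only, so that the protein groups share a single replicate number, and no test compares the proteins. The tests given use differences within each library. With 3 libraries no test could reach 0.05, and no value of depth or input was at hand to set a limit for weak summits.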
